A study of Mus musculus with 3 samples.

Results

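The spliceosomal small nuclear RNAs (snRNAs) U1, U2, U4, U5 and U6 were described in RNA that came down with antibodies from mouse hippocampus. The members were the 5 names equal to U1, U2, U4, U5 or U6 among 18484 listed repeat names, and all 5 were present. Each of 3 groups had 1 library. In the first, RNA was precipitated with ZBP1 from PS19 hippocampus, in the second with Z-form nucleic acid (ZNA) from PS19 hippocampus, and in the third with ZNA from wild-type (WT) hippocampus. All mice were 9 months old and of C57BL/6 background, and PS19 mice also carry a mutant human tau transgene, which is driven by the mouse prion protein promoter in addition to the mouse's own tau gene. The labels do not state how many mice entered a library. An input, an isotype control and a ZBP1 pull-down from WT were not analysed here, so no value separates RNA bound by an antibody's target from background RNA. A level in a pull-down of bulk tissue also does not tell fewer cells of a type from less RNA per cell.

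The spliceosome removes introns from pre-mRNA. U1 pairs with the 5′ splice site and U2 with the branch point, and they are the first particles to bind. U4, U5 and U6 enter together as the tri-snRNP, in which U4 holds U6 in an inactive pairing. U6 then replaces U1 at the 5′ splice site and forms the catalytic core with U2, while U5 holds the exon ends. U1, U2, U4 and U5 are made by RNA polymerase II and carry a ring of Sm proteins, whereas U6 is made by RNA polymerase III and carries LSm proteins. Z-form nucleic acid is a left-handed double helix, and ZBP1 is a sensor protein that binds it.

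Each name can pool reads of several copies of that RNA in the genome, true genes and pseudogenes alike. How reads shared by several copies were counted is not given. The RefSeq annotation of GRCm38.p6 holds 1004 snRNA genes, and none was found under an Rnu4 symbol for U4. Rnu1a1, Rnu1b1, Rnu1b2 and Rnu1b6 carry U1 symbols, Rnu2-10 a U2 symbol, Rnu5g a U5 symbol and Rnu6 a U6 symbol. The counts cannot be placed on any of these genes, and no chromosome position, strand or copy can be given. Lengths of the RNAs were not used, so counts of different names within a library are compared as reads only, and a share of reads is not a share of molecules.

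On repeat names, the PS19 ZBP1 library held 1425383 reads, PS19 ZNA held 2918985 and WT ZNA held 3234786. The ribosomal names LSU-rRNA_Hsa and SSU-rRNA_Hsa took 94.8%, 89.4% and 95.5% of these reads, which left 74474, 308613 and 145372 reads outside rRNA. A value per library total therefore moves with the rRNA share, and each snRNA is given in counts per 1000000 reads of the library (CPM) and, with the reads outside rRNA as the total, in CPM outside rRNA. A count of 0 was given a one-sided limit of 3 reads, which correspond to 2.10, 1.03 and 0.927 CPM. The upper end of its two-sided Poisson interval is higher, at 2.59, 1.26 and 1.14 CPM. Intervals are exact 95% intervals and cover counting error only, since reads without molecular identifiers are not independent molecules. With 1 library a group there is no replicate error and no test of a condition. The files list repeats and not genes, so hippocampal marker genes could not be checked. BC1_Mm, a neuronal RNA, had 33, 146 and 77 reads.

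The 5 snRNA names together held 1343 reads in PS19 ZBP1, 3301 in PS19 ZNA and 4969 in WT ZNA. These were 0.0942% (exact binomial interval 0.0893 to 0.0994%), 0.113% (0.109 to 0.117%) and 0.154% (0.149 to 0.158%) of the library totals. The WT ZNA library was highest and the PS19 ZBP1 library lowest, and no intervals overlapped. Of the reads outside rRNA, the snRNAs made up 1.80% (1.71 to 1.90%), 1.07% (1.03 to 1.11%) and 3.42% (3.33 to 3.51%), in the same order of libraries. On this scale WT ZNA was again highest, but PS19 ZNA was lowest.

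U1, which recognises the 5′ splice site, had by far the most reads of the 5 names. It had 1249 reads in PS19 ZBP1 (876 CPM, Poisson interval 828 to 926), 2823 in PS19 ZNA (967 CPM, 932 to 1003) and 4436 in WT ZNA (1371 CPM, 1331 to 1412). Outside the 2 rRNA names, U1 ranked second by reads in WT ZNA, 8 in PS19 ZBP1 and 28 in PS19 ZNA. Its level in CPM outside rRNA was 16771 (15854 to 17728), 9147 (8813 to 9491) and 30515 (29623 to 31426). WT ZNA was highest on both scales, and the order of the PS19 libraries depended on the scale.

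U2, which pairs with the branch point, had 31 reads in PS19 ZBP1 (21.7 CPM, 14.8 to 30.9), 250 in PS19 ZNA (85.6 CPM, 75.4 to 96.9) and 379 in WT ZNA (117 CPM, 106 to 130). In CPM outside rRNA the level was 416 (283 to 591), 810 (713 to 917) and 2607 (2351 to 2883). The order WT ZNA, PS19 ZNA, PS19 ZBP1 held on both scales, with no overlap of intervals.

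U4, the partner that keeps U6 inactive, had 40 reads in PS19 ZBP1 (28.1 CPM, 20.05 to 38.2), 73 in PS19 ZNA (25.01 CPM, 19.6 to 31.4) and 55 in WT ZNA (17.003 CPM, 12.8 to 22.1). It was the only one of the 4 names outside U6 that had its lowest CPM in the WT library, although the intervals of the 3 libraries overlapped. In CPM outside rRNA it had 537 (384 to 731), 237 (185 to 297) and 378 (285 to 492), so that PS19 ZNA was lowest, and the interval of WT ZNA overlapped those of both PS19 libraries.

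U5, which aligns the exons, had 19 reads in PS19 ZBP1 (13.3 CPM, 8.03 to 20.8), 153 in PS19 ZNA (52.4 CPM, 44.4 to 61.4) and 96 in WT ZNA (29.7 CPM, 24.0 to 36.2). The CPM was highest in PS19 ZNA and lowest in PS19 ZBP1, with no overlap of intervals. Outside rRNA the CPM was 255 (154 to 398), 496 (420 to 581) and 660 (535 to 806). PS19 ZBP1 was lowest on this scale too, and the intervals of the ZNA libraries overlapped.

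U6, the catalytic snRNA, was almost without reads. It had 4 reads in PS19 ZBP1 (2.81 CPM, 0.765 to 7.19), 2 in PS19 ZNA (0.685 CPM, 0.0830 to 2.48) and 3 in WT ZNA (0.927 CPM, 0.191 to 2.71), and the counts of both ZNA libraries lay at or below 3 reads. U4, its partner in the tri-snRNP, had 10, 36.5 and 18.3 reads for each read of U6 in these libraries, with intervals of 3.61 to 38.5, 9.75 to 307 and 5.95 to 91.6. U6 did not pass the filter on low counts and was left out of the comparisons of single names below. Any difference in U6 rests on 4 reads or fewer in each library: the 4 against 2 reads of ZBP1 and ZNA in PS19 gave a ratio of 4.10 per library total, with an interval that included 1 (0.587 to 45.3), and of 8.29 outside rRNA (1.19 to 91.6).

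**Figure D1:**
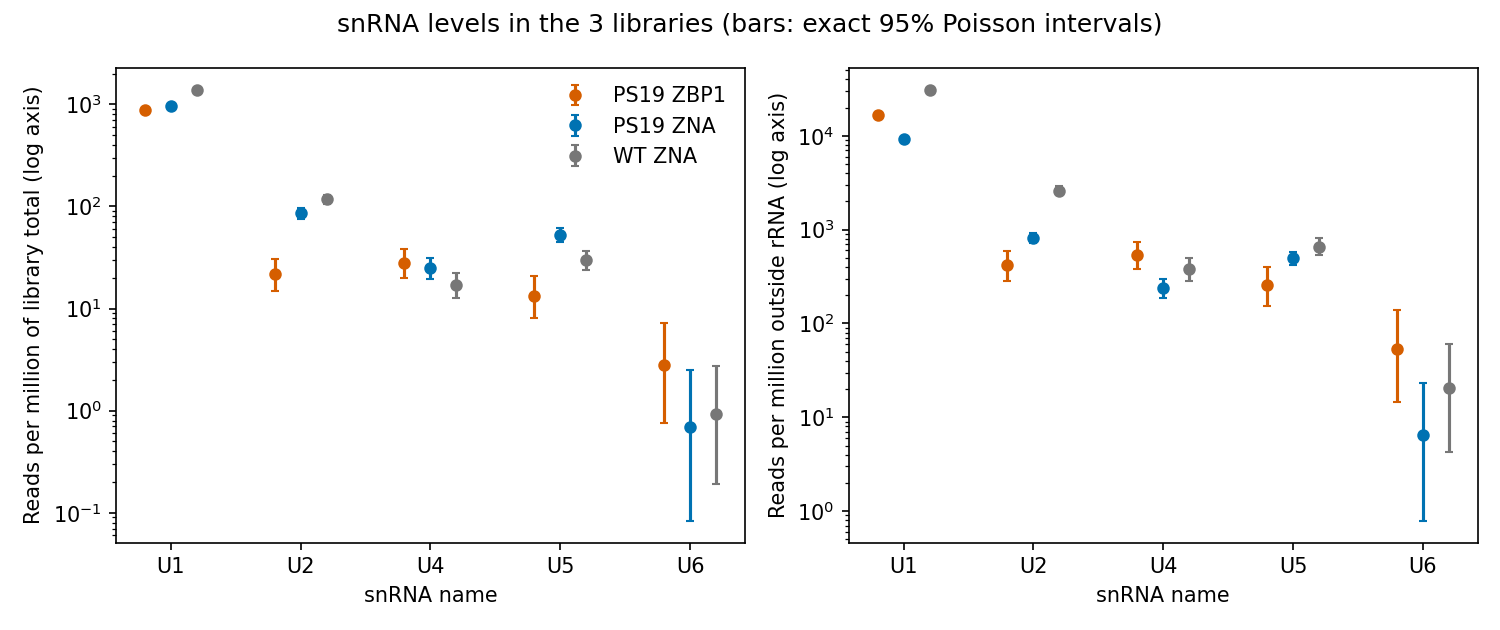
Each snRNA name in CPM of the library total (left) and in CPM outside rRNA (right), both on log axes, for PS19 ZBP1 (orange), PS19 ZNA (blue) and WT ZNA (grey). Points are single libraries and bars are exact 95% Poisson intervals; U2 and U5 are lowest in PS19 ZBP1 in both panels, and U6 lies at 4 reads or fewer.

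The first comparison asked how the snRNAs in the ZNA pull-down differed between PS19 and WT. Per library total, the summed snRNAs were 1.36-fold lower in PS19 (exact interval 1.30 to 1.42), and the 4 names with enough reads did not all differ in 1 direction. U1 was lower by 1.42-fold (1.35 to 1.49) and U2 by 1.37-fold (1.16 to 1.61). U4 was 1.47-fold higher (1.02 to 2.13) and U5 1.77-fold higher (1.36 to 2.30). A name entered the comparison when it averaged at least 1 CPM across both libraries and had at least 20 reads, and it was called when log2(CPM + 1) differed by at least 2-fold. None of the 4 was called in either direction, while 74.3% of the 713 names compared were called higher and 0.421% lower. Counting instead the names whose exact interval left out 1, U4 and U5 were higher, against 84.3% of all names, and U1 and U2 were lower, against 0.842%. The median log2 ratio was 0.04 for the 4 snRNAs and 1.24 for all names, with U1 at rank 6 and U2 at rank 7 from the lowest of 713 names, U4 at rank 59 and U5 at rank 118.

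Per reads outside rRNA, all 4 snRNAs were lower in PS19. U1 was lower by 3.34-fold (3.18 to 3.50), U2 by 3.22-fold (2.74 to 3.79), U4 by 1.60-fold (1.11 to 2.30) and U5 by 1.33-fold (1.02 to 1.73). On this scale U1 and U2 were called 2-fold lower and no snRNA was called higher, against 2.39% and 3.52% of 711 names. The exact intervals of all 4 lay below 1, which held for 6.47% of all names, and none lay above 1, against 14.6%. The median log2 ratio was -1.16 for the 4 snRNAs and 0.07 for all names. The share of reads outside rRNA moved with this comparison, at 10.6% in PS19 ZNA and 4.49% in WT ZNA, and its part in the result was not tested. Higher or lower for U4 and U5 thus depended on the scale, whereas U1 and U2 were lower on both.

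Within PS19 hippocampus, RNA that came down with ZBP1 was then compared with RNA that came down with ZNA. Here the snRNAs split otherwise. Per library total, U2 was 3.94-fold lower in the ZBP1 library (2.70 to 5.92) and U5 3.93-fold lower (2.43 to 6.71). U1 was 1.10-fold lower (1.03 to 1.18), and U4 was 1.12-fold higher with an interval that included 1 (0.743 to 1.67). U2 and U5 were called 2-fold lower, against 50.1% of 682 names, and no snRNA was called higher, against 0.293%. The interval left out 1 on the lower side for U1, U2 and U5, against 67.3% of names, and on the higher side for none, against 2.35%. These shares of the snRNAs were close to the background. Their median log2 ratio was -1.02, against -1.002 for all names, and U2 and U5 stood at ranks 56 and 62 from the lowest, U1 and U4 at ranks 86 and 42 from the highest.

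Per reads outside rRNA, U1 was 1.83-fold higher (1.71 to 1.96) and U4 2.27-fold higher (1.504 to 3.38) with ZBP1 than with ZNA. U2 was 1.95-fold lower (1.34 to 2.93) and U5 1.94-fold lower (1.20 to 3.32). U4 was called 2-fold higher and no snRNA was called lower, and each direction held 8.09% of 680 names. Intervals left out 1 for U1 and U4 on the higher side, against 18.8% of names, and for U2 and U5 on the lower side, against 18.7%. The median log2 ratio was -0.02 for the 4 snRNAs and -0.05 for all names. Reads outside rRNA were 5.22% of the ZBP1 and 10.6% of the ZNA library, and the part of this in the result was not tested. Both comparisons use the same PS19 ZNA library, so their values are not independent.

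**Figure D2:**
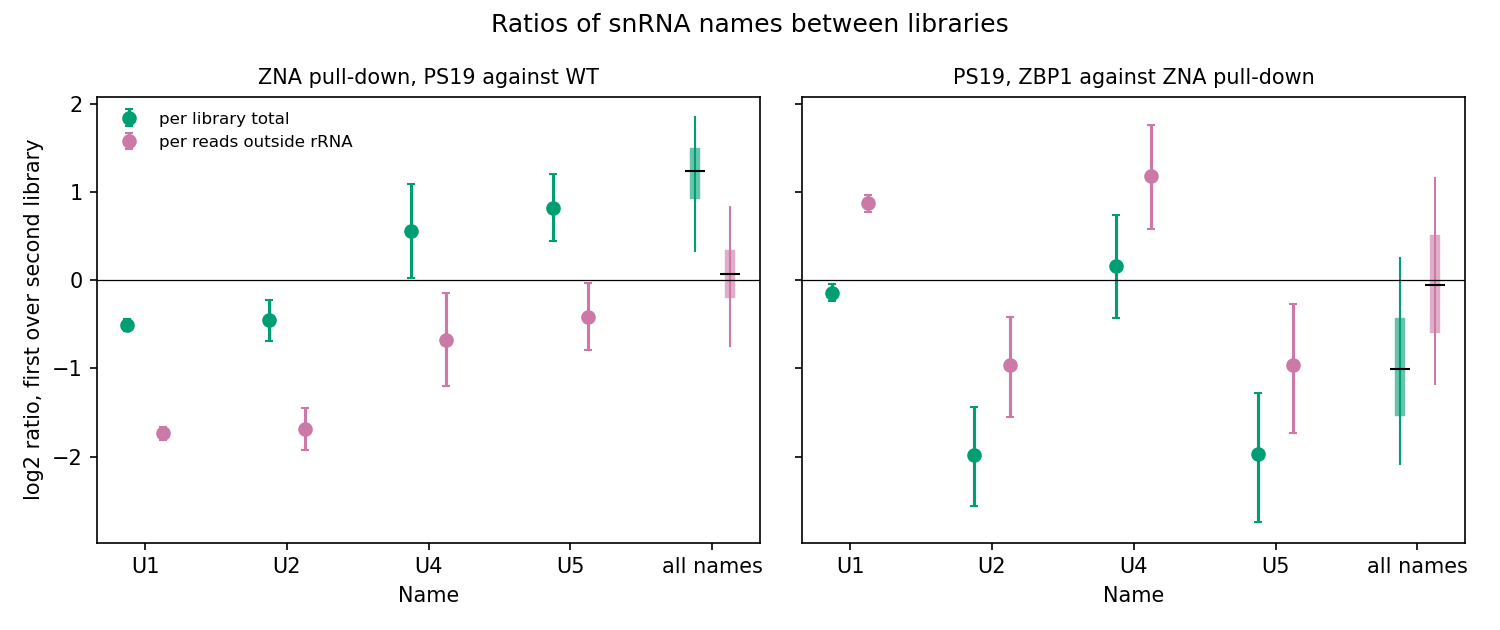
Log2 ratio of each snRNA name between the libraries (vertical axis), in PS19 over WT for the ZNA pull-down (left) and ZBP1 over ZNA in PS19 (right), scaled by library total (green) or by reads outside rRNA (pink). Bars on the names are exact 95% intervals; at the right of each panel the thick bar is the interquartile range over all names compared, the thin line the central 90%, and the dash their median, which lies at 1.24 and 0.07 (left) and at -1.002 and -0.05 (right).

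The ratio of a pair of snRNAs within a library does not depend on the scale or on RNA length once it is compared between libraries. U1 to U2 was 40.3 in PS19 ZBP1 (28.2 to 59.6), 11.3 in PS19 ZNA (9.92 to 12.9) and 11.7 in WT ZNA (10.5 to 13.03). Between the ZNA libraries the ratio in PS19 was 0.965 times that in WT, with an interval that included 1 (0.814 to 1.14), and the ZBP1 library stood 3.57-fold above the PS19 ZNA library (2.43 to 5.39). U4 to U5, both of the tri-snRNP, was 2.11 in PS19 ZBP1 (1.19 to 3.85), 0.477 in PS19 ZNA (0.356 to 0.635) and 0.573 in WT ZNA (0.404 to 0.806). It was 4.41-fold higher with ZBP1 than with ZNA in PS19 (2.30 to 8.62), and between PS19 and WT ZNA the ratio of 0.833 had an interval that included 1 (0.528 to 1.32).

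U1 to U5 was 65.7 in PS19 ZBP1 (41.9 to 110), 18.5 in PS19 ZNA (15.7 to 21.9) and 46.2 in WT ZNA (37.7 to 57.2). Here PS19 ZNA stood apart from both other libraries, 2.504-fold below WT (1.92 to 3.28) and 3.56-fold below ZBP1 (2.19 to 6.11). U2 to U5 was 1.63 in both PS19 libraries (0.893 to 3.06 in ZBP1 and 1.33 to 2.01 in ZNA) and 3.95 in WT ZNA (3.15 to 4.99). It was 2.42-fold lower in PS19 than in WT ZNA (1.77 to 3.30), while the ZBP1 to ZNA ratio of 0.999 had a wide interval of 0.525 to 1.94.

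U1 to U4 was 31.2 in PS19 ZBP1 (22.8 to 43.9), 38.7 in PS19 ZNA (30.7 to 49.5) and 80.7 in WT ZNA (61.8 to 107). It was 2.09-fold lower in PS19 than in WT ZNA (1.44 to 3.03), and the interval of ZBP1 over ZNA included 1 (0.807, 0.538 to 1.23). U2 to U4 spread the most of these 6 pairs, from 0.775 in PS19 ZBP1 (0.469 to 1.27) to 3.42 in PS19 ZNA (2.63 to 4.51) and 6.89 in WT ZNA (5.18 to 9.32). It was 2.01-fold lower in PS19 than in WT ZNA (1.35 to 3.02) and 4.42-fold lower in ZBP1 than in ZNA of PS19 (2.49 to 7.84).

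In the ZNA comparison of PS19 with WT, the intervals of 4 of these 6 pair ratios left out 1, against 21.3% of the pairs that could be formed from 523 names with at least 50 reads. The 4 were those that join U1 or U2 with U4 or U5. In the comparison of ZBP1 with ZNA, 4 of 6 left out 1 too, against 42.8% of the pairs from 504 names, and these were the pairs that join U1 or U4 with U2 or U5. Between PS19 and WT, 4.76% of all pairs differed by as much as U1 to U5, 5.30% as much as U2 to U5, 8.06% as much as U1 to U4, 9.07% as much as U2 to U4, 57.1% as much as U4 to U5 and 90.7% as much as U1 to U2. Between ZBP1 and ZNA these percentages were 3.57% for U2 to U4, 3.68% for U4 to U5, 6.89% for U1 to U2, 7.11% for U1 to U5, 74.4% for U1 to U4 and 98.8% for U2 to U5. Of all 10 pairs, 4 and 6 left out 1 in these comparisons. The 2 added with U6 were U2 to U6 and U5 to U6 in ZBP1 against ZNA, at 0.0620 (0.00551 to 0.461) and 0.0621 (0.00545 to 0.480) on the 4 and 2 reads of U6. The pairs share names and libraries, so they are not independent. Whether an interval leaves out 1 also depends on the number of reads, and U1 had far more than the minimum of 50.

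**Figure D3:**
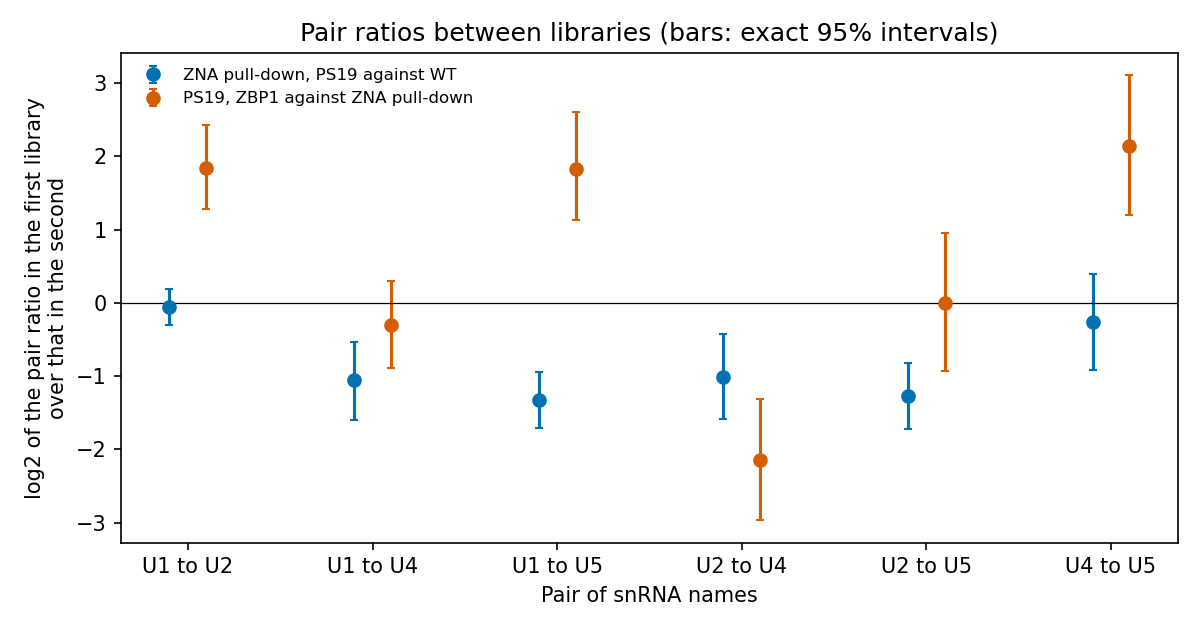
Log2 of each pair ratio in the first library over that in the second (vertical axis) for the 6 pairs without U6, in PS19 over WT ZNA (blue) and ZBP1 over ZNA of PS19 (orange), with exact 95% intervals. U1 to U2 and U4 to U5 lie near 0 in blue, U1 to U4 and U2 to U5 lie near 0 in orange, and the other pairs lie off 0.

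The make-up of the snRNA reads shows the same counts on 1 scale. U1 took 93.0% of them in PS19 ZBP1 (exact binomial interval 91.5 to 94.3%), 85.5% in PS19 ZNA (84.3 to 86.7%) and 89.3% in WT ZNA (88.4 to 90.1%). With U1 set aside, 94, 478 and 533 reads remained. U2 was the leading name among them in WT ZNA at 71.1% (67.1 to 74.9%) and in PS19 ZNA at 52.3% (47.7 to 56.9%), and it took 33.0% in PS19 ZBP1 (23.6 to 43.4%). U4 took 42.6% in PS19 ZBP1 (32.4 to 53.2%), 15.3% in PS19 ZNA (12.2 to 18.8%) and 10.3% in WT ZNA (7.87 to 13.2%). U5 was largest in PS19 ZNA, at 32.0% (27.8 to 36.4%), against 20.2% in PS19 ZBP1 (12.6 to 29.8%) and 18.0% in WT ZNA (14.8 to 21.5%).

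**Figure D4:**
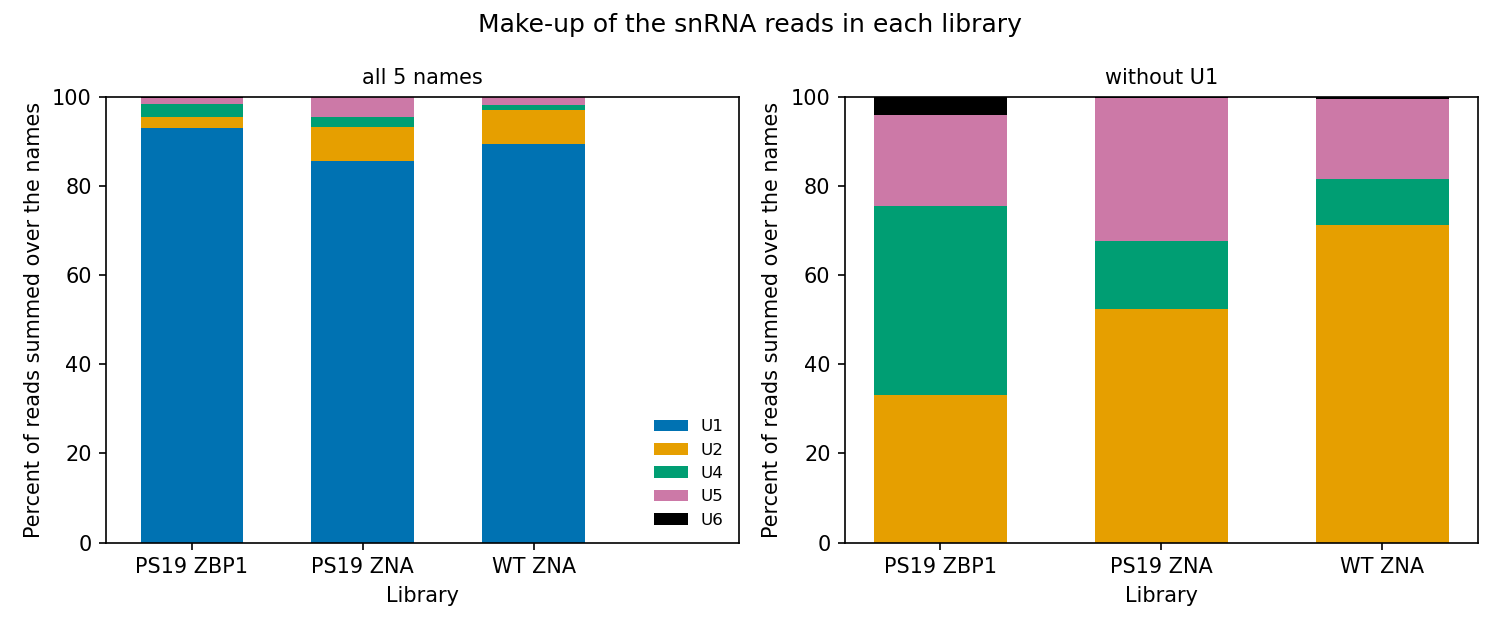
Percent of the snRNA reads on each name (vertical axis) in each library, with all 5 names (left) and with U1 set aside (right). U1 fills 85.5 to 93.0% of each bar on the left, and on the right U2 leads in both ZNA libraries. In PS19 ZBP1 the largest part on the right is U4, at 42.6% of only 94 reads, and its interval overlaps that of U2.

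PS19 ZBP1 and WT ZNA differ in genotype and in antibody, which cannot be told apart, and their values stand here only side by side with the others. Per library total, U1 was lower by 1.56-fold in PS19 ZBP1 than in WT ZNA (1.47 to 1.67), U2 by 5.39-fold (3.73 to 8.04) and U5 by 2.23-fold (1.35 to 3.86), and U4 was 1.65-fold higher (1.07 to 2.53). Per reads outside rRNA, U1 was lower by 1.82-fold (1.71 to 1.94), U2 by 6.26-fold (4.34 to 9.35) and U5 by 2.59-fold (1.57 to 4.49), whereas the interval of U4 included 1 (1.42-fold higher, 0.920 to 2.17). Reads outside rRNA were 5.22% of PS19 ZBP1 and 4.49% of WT ZNA, so the scales differed less here than in the other comparisons. For U4 the scale still decided whether the interval included 1.

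Other small structural RNA names of a chosen list were set beside the snRNAs: the processing RNAs U3, U8, U13, U14 and U17, the histone pre-mRNA processing RNA U7, the Y RNAs HY1, HY3, HY4 and HY5, the transcription regulator 7SK, 7SLRNA of the signal recognition particle, 4.5SRNA, 5S and BC1_Mm. Of these 15 names 12 had a read in any library, and U7, HY4 and HY5 had 0 in all 3, for which the two-sided Poisson interval reaches 2.59, 1.26 and 1.14 CPM. Together the list held 654 reads in PS19 ZBP1, 5213 in PS19 ZNA and 6394 in WT ZNA. The snRNAs made up 67.3%, 38.8% and 43.7% of the reads on snRNAs and the list combined. These shares rest mostly on U1 and 7SK. In the same order of libraries, 7SK held 330, 3542 and 4556 reads of the list, and U1 held 1249, 2823 and 4436 of the snRNA reads.

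Between PS19 and WT ZNA, 11 names of the list were compared, with a median log2 ratio of 0.96 by library total and -0.16 by reads outside rRNA. Per library total 5 of the 11 were called 2-fold higher and 1 lower, against 74.3% and 0.421% of all names. Per reads outside rRNA 2 were called higher and 3 lower, against 3.52% and 2.39%. The 3 lower names outside rRNA were HY1, HY3 and 7SK. Between ZBP1 and ZNA of PS19, 10 were compared, with a median of -1.20 per library total and -0.30 outside rRNA. Per library total 0 were called higher and 7 lower, against 0.293% and 50.1% of all names. Outside rRNA 0 were called higher and 3 lower, again HY1, HY3 and 7SK, against 8.09% of all names in each direction. U4 and U1 had log2 ratios of 1.14 and 0.87 outside rRNA, above the highest value of the list, 0.79 for 4.5SRNA. The interval of 4.5SRNA overlapped those of both, and among all 680 names they stood at ranks 37 and 71 from the highest. U2 and U5, at -0.94 and -0.92, lay within the range of the list.

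The names with the pattern most like each snRNA over the 3 libraries were sought among 411 names with at least 100 reads in all. Likeness was the Euclidean distance of log2(CPM outside rRNA + 1), centred on its mean, and it rests on 3 points. Nearest to U2 was 7SK at a distance of 0.29, against a median distance of 1.93 to all names, with 4431, 11477 and 31340 CPM outside rRNA in PS19 ZBP1, PS19 ZNA and WT ZNA. Nearest to U5 were the LINE-1 names Lx2A (0.17), L1MC (0.18) and L1MA4A (0.25), against a median of 1.03. Nearest to U4 were the LTR names RLTR26B_MM (0.16), MLT1H (0.17) and IAPEY2_LTR (0.19), against a median of 0.96. U1 had no near match, with L1MCb first at 0.73 against a median of 1.37. For U2, L1M4a2 (0.78) and 7SLRNA (0.81) followed, and for U1, MLT1K (0.76) and RLTR13D5 (0.76). U6 had 9 reads in all, too few to be placed.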

How the data were processed

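The deposited values were whole-number read counts per repeat name, not normalized, as the values themselves show. Per the submitters' processing notes, Trim Galore 0.6.5, STAR 2.5.3a, featureCounts 2.0.4 and the build mm39 were used. The repeat annotation, the strand setting and the treatment of reads that map to several copies are not given in the sources used here, and the last of these decides how many reads a multi-copy snRNA name keeps. Per the labels, TRIzol extraction and a NEBNext Ultra RNA kit were used.

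CPM used the sum over all names of a library. The log2 ratio used a pseudocount of 1, which understates changes of low names. When libraries were scaled otherwise, the scaled sizes kept the geometric mean of the totals of both libraries. Intervals were exact conditional (ratios, pair ratios), Poisson (levels) or Clopper-Pearson (shares) 95% intervals. Pair ratios of all names used log odds intervals with 0.5 reads added. edgeR's quasi-likelihood test needs replicates and was not run; edgeR gave TMM factors only. The calculation per library total was tested on Poisson counts simulated from a profile shared by both libraries. That simulation held neither the difference in rRNA share nor variation between replicates, so it says nothing about either. Members, lists and rules were chosen with earlier results of these data known; the comparison with all pairs, and those with 7SK and U17, were added after the values were seen. All 5 members are named. Of the 20 listed small RNA names, 15 were matched, and U11, U12, U13_, U4ATAC and U6ATAC were not analysed here. Named look-alikes are the 3 nearest names for each member. Alternatives were no filter or one at 10 CPM on average, other scalings, the pseudocounts 0.1 and 5, limits of 1.5-fold and 4-fold, 0.5 added reads, and the sum without U1. edgeR 4.0.16 ran in R 4.3.3, and all else in Python 3.11.15 with scipy 1.17.1, pandas 2.3.3 and numpy 2.4.6.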

Additional observations from a re-analysis of the deposited data

How the results depend on the processing

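The log2 ratio of the summed snRNAs in PS19 against WT ZNA went from -0.44 per library total to -1.67 per reads outside rRNA, -1.67 under TMM and -1.75 per reads outside rRNA and small structural RNA. In ZBP1 against ZNA it went from -0.26 to 0.75, 0.60 and 0.75, a change of sign. By the same 3 scalings U4 in PS19 against WT went from 0.53 to -0.65, -0.64 and -0.72, U5 from 0.80 to -0.40, -0.40 and -0.48, and U1 in ZBP1 against ZNA from -0.14 to 0.87, 0.72 and 0.87. U1 and U2 in PS19 against WT, and U2 and U5 in ZBP1 against ZNA, stayed lower under all 3. By construction these 3 scalings take the rRNA reads out of the total or centre the names.

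In PS19 against WT, 0 of 4 snRNAs past 2-fold became 2 lower under each of the 3 scalings, where 2.39 to 2.66% of all names were lower, and 1 higher at 1.5-fold, where 90.7% of names were higher. In ZBP1 against ZNA, 0 higher became 1 under both scalings to reads outside rRNA (8.09 and 7.94% of names) and 1 (U6) without a filter (2.41%). There 2 lower became 0 under both scalings to reads outside rRNA (8.09% of names in each) and 0 at 4-fold (6.01%). All 20 pair ratios of these comparisons stayed inside their intervals with 0.5 reads added. So small an addition can hardly move a ratio out of its interval, so this says little about robustness. Leaving U1 out of the sum raises the other shares by construction: U2 from 2.31, 7.57 and 7.63% to 33.0, 52.3 and 71.1% in PS19 ZBP1, PS19 ZNA and WT ZNA, U4 from 2.98, 2.21 and 1.11% to 42.6, 15.3 and 10.3%, U5 from 1.41, 4.63 and 1.93% to 20.2, 32.0 and 18.0%, and U6 from 0.298, 0.0606 and 0.0604% to 4.26, 0.418 and 0.563%.

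No paired analysis was possible because each group has 1 library, so that no library was left out either. Precision was lowest with ZBP1, for which a single read equals 0.702 CPM.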

Other observations

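The snRNAs were also set against 7SK, a small nuclear RNA made by RNA polymerase III that holds the elongation factor P-TEFb inactive, after their values had been seen. Since 7SK had been picked as the name nearest to U2 in these libraries, their ratio restates that choice, with 0.0939 reads of U2 per read of 7SK in PS19 ZBP1 (0.0628 to 0.136), 0.0706 in PS19 ZNA (0.0618 to 0.0803) and 0.0832 in WT ZNA (0.0747 to 0.0924). The intervals of its change included 1 both between PS19 and WT ZNA (0.848, 0.716 to 1.004) and between ZBP1 and ZNA (1.33, 0.870 to 1.98). U1 per read of 7SK was 3.78 (3.35 to 4.29), 0.797 (0.758 to 0.838) and 0.974 (0.934 to 1.01) in these libraries, a 4.75-fold higher value in ZBP1 than in ZNA of PS19 (4.16 to 5.43). Per library total, 7SK itself was 5.24-fold lower in ZBP1 than in ZNA (4.68 to 5.88), and U1 1.10-fold lower (1.03 to 1.18). Because 7SK followed U2, the ratios of U1, U4 and U5 to 7SK are not independent of their pair ratios with U2. U4 per read of 7SK was 5.88-fold higher in ZBP1 than in ZNA of PS19 (3.83 to 8.92) and 1.71-fold higher in PS19 than in WT ZNA (1.18 to 2.48). U5 per read of 7SK was 2.05-fold higher in PS19 than in WT ZNA (1.57 to 2.68), and its interval in ZBP1 against ZNA included 1 (1.33, 0.771 to 2.19). U1 per read of 7SK was 1.22-fold lower in PS19 than in WT ZNA (1.14 to 1.30). Between these libraries 7SK itself was 1.16-fold lower in PS19 per library total (1.11 to 1.21) and 2.73-fold lower outside rRNA (2.61 to 2.85).

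Against U17, a snoRNA of ribosomal RNA processing, the ratios of U4 and U5 in PS19 ZNA were 0.958 (0.649 to 1.42) and 1.15 (0.857 to 1.55) times those in WT ZNA, with intervals that included 1. U1 and U2 per read of U17 were 2.18-fold (1.90 to 2.503) and 2.10-fold (1.70 to 2.59) lower in PS19. U17 itself moved between these libraries. Per library total it was 1.54-fold higher in PS19 ZNA than in WT ZNA (1.35 to 1.75). Outside rRNA it was 1.53-fold lower (1.34 to 1.74). A ratio to U17 therefore does not tell a change of the snRNA from a change of U17. Between ZBP1 and ZNA of PS19 the intervals of all 4 against U17 left out 1: U1 was 1.81-fold (1.48 to 2.22) and U4 2.24-fold (1.42 to 3.499) higher with ZBP1, and U2 1.97-fold (1.29 to 3.10) and U5 1.97-fold (1.17 to 3.48) lower. These ratios do not depend on the scaling of the libraries, and their intervals cover counting error only. Dividing by U17 is itself a choice of scale, however, and U17 was chosen after the values were seen. Per reads outside rRNA, U17 with ZBP1 was 1.01 times that with ZNA in PS19 (0.835 to 1.22). The U17 ratios of this comparison therefore nearly repeat those per reads outside rRNA and are not separate from them. Per library total, U1 was instead 1.10-fold lower with ZBP1, and the interval of U4 included 1.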
